A study of Mus musculus with 6 samples.

Results

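The liver X receptors (LXRs) are nuclear receptors that bind oxysterols and, paired with RXR, switch on genes that move cholesterol out of the cell. A group of 5 genes known as classical LXR targets of cholesterol export, receptor decay and phospholipid remodelling is described here: Abca1, Abcg1, Mylip, Lpcat3 and Pltp. They were taken by symbol from the deposited count table, which held all 5 among its 23337 gene symbols. Messenger RNA was read by RNA sequencing in macrophages that had been grown from mouse bone marrow for 7 days with M-CSF, their growth factor. Every library came from cells given LPS, a bacterial product that activates macrophages, at 100 ng/ml for 8 h, and a response to LPS cannot be read from these groups.

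The 3 groups, each of 2 libraries, were Ch25hKO (no functional Ch25h), LXRdKO (no functional LXRα and LXRβ, encoded by Nr1h3 and Nr1h2) and WT (wild type), all listed as strain C57BL/6. The product of Ch25h is 25-hydroxycholesterol. This oxysterol is known both as a ligand of LXRs and as a brake on SREBP2, which activates cholesterol synthesis genes. The labels do not say which part of each gene was removed, or if both libraries of a genotype were separate animals or cultures. The p-values thus rest on library-to-library spread, some or all of which may be technical.

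In macrophages, LXR activity is known above all for cholesterol efflux. ABCA1 hands cholesterol and phospholipid to lipid-poor apolipoproteins, and ABCG1 adds cholesterol to HDL particles. MYLIP (IDOL) is a ubiquitin ligase that marks lipoprotein receptors for destruction, which lowers cholesterol uptake. LPCAT3 puts polyunsaturated fatty acids into membrane phospholipids, and PLTP is secreted and moves phospholipids between lipoproteins.

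The windows from 250 bases before to 50 bases after the transcription start were read from RefSeq (GRCm38.p6), which matched 4 of the 5 genes, 1 window each: Abca1, Lpcat3, Mylip and Pltp. LXR with RXR is known to bind DR4 elements. They were searched here as 1 sequence, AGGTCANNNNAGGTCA, with 12 fixed letters around a spacer. Binding was not measured, and a count of mismatches does not show whether LXR binds a site. On both strands, none of the 4 windows held a match with 2 mismatches or fewer, which 3.02% of 32851 such windows did. Allowing 3 mismatches, which 21.9% of all windows passed, Abca1 had 1 match. The closest match had 4 mismatches in Lpcat3 and 5 in Mylip and Pltp, limits that 76.9% and 99.8% of all windows met. The 250 bases before the start are shown for Abca1, which had the closest match, and for Mylip, the gene furthest below WT in LXRdKO. Capitals mark the DR4 match with 3 mismatches and the letters TATAAA. Both run 5′ to 3′ on the gene's strand.
Abca1: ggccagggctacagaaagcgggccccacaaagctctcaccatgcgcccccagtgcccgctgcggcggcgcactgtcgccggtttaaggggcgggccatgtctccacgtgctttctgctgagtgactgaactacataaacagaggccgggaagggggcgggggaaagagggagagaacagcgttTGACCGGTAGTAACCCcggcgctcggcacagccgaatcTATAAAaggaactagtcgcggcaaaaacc
Mylip: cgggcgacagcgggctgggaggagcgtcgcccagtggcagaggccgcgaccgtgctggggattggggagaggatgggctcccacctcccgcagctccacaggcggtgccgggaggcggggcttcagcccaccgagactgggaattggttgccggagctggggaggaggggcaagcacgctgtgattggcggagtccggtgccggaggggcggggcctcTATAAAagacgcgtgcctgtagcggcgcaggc

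These stretches are chr4:53159896-53160145 (minus strand) and chr13:45389492-45389741 (plus strand). The Abca1 match lies on the strand opposite to the gene at positions -67 to -52, and read in the direction of the motif it is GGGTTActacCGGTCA, with the spacer in lower case. TATAAA, searched on both strands, began at position -29 in Abca1 and -32 in Mylip. It was also in the Pltp window, after the transcription start, and was absent from that of Lpcat3. It was in 13.6% of all windows. The G and C content was 62.7% in Abca1, 71.0% in Lpcat3 and in Mylip, and 59.0% in Pltp, against a median of 52.7% over all windows.

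Total counts were 41650513 and 42855130 in Ch25hKO, 44576055 and 45872964 in LXRdKO, and 45343311 and 42816660 in WT. The targeted genes were read first. Ch25h had 42 and 57 counts in Ch25hKO, 2509 and 2763 in LXRdKO, and 3120 and 3076 in WT. Nr1h3 had 806 and 859 counts in Ch25hKO, 42 and 41 in LXRdKO, and 710 and 756 in WT. Nr1h2 had 1408 and 1507 counts in Ch25hKO, 35 and 35 in LXRdKO, and 1292 and 1401 in WT. Each knockout library was low in the genes its label names. Levels are in CPM, the counts scaled by TMM library size, and changes are log2 fold changes ± standard error from edgeR's quasi-likelihood fit to all 6 libraries, with Benjamini-Hochberg adjustment over 12923 genes. A gene passed the test at an adjusted p under 0.05.

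Without Ch25h, Abcg1, Mylip and Abca1 fell, and Lpcat3 and Pltp rose. Thus 3 of the 5 were lower and 2 higher than in WT, where 19.5% of all tested genes were lower and 19.8% higher. The libraries of Ch25hKO and WT did not overlap for any of the 5, as for 68.3% of all tested genes. The median change of the 5 was -0.51, beside 0.0064 over all tested genes.

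Without both LXRs, Mylip, Abcg1 and Lpcat3 fell, Pltp rose, and Abca1 did not pass the test. That is 3 lower and 1 higher of 5, where 15.5% of all tested genes were lower and 16.4% higher than in WT. The libraries of LXRdKO and WT did not overlap for any of the 5, as for 63.6% of all tested genes. The median change was -0.25, beside 0.0026 over all tested genes. The 5 thus did not share a direction without the receptors: Pltp was higher, and Mylip, Abcg1 and Lpcat3 were lower. Abca1, at 91.4% of its WT level, lay on the lower side without passing the test. Whether LXRs drive each gene in these cells was not tested.

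Set directly against Ch25hKO, LXRdKO had higher Abcg1, Pltp and Abca1 and lower Lpcat3 and Mylip. All 5 genes therefore differed between the knockouts, 3 higher and 2 lower, where 19.3% of all tested genes were higher and 18.6% lower. No gene of the 5 had overlapping libraries in this comparison, as for 71.2% of all tested genes. The median change was 0.38, beside -0.013 over all tested genes. The WT libraries are shared by both comparisons with WT, and do not enter this one other than through the common scaling, gene filter and spread.

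**Figure D1:**
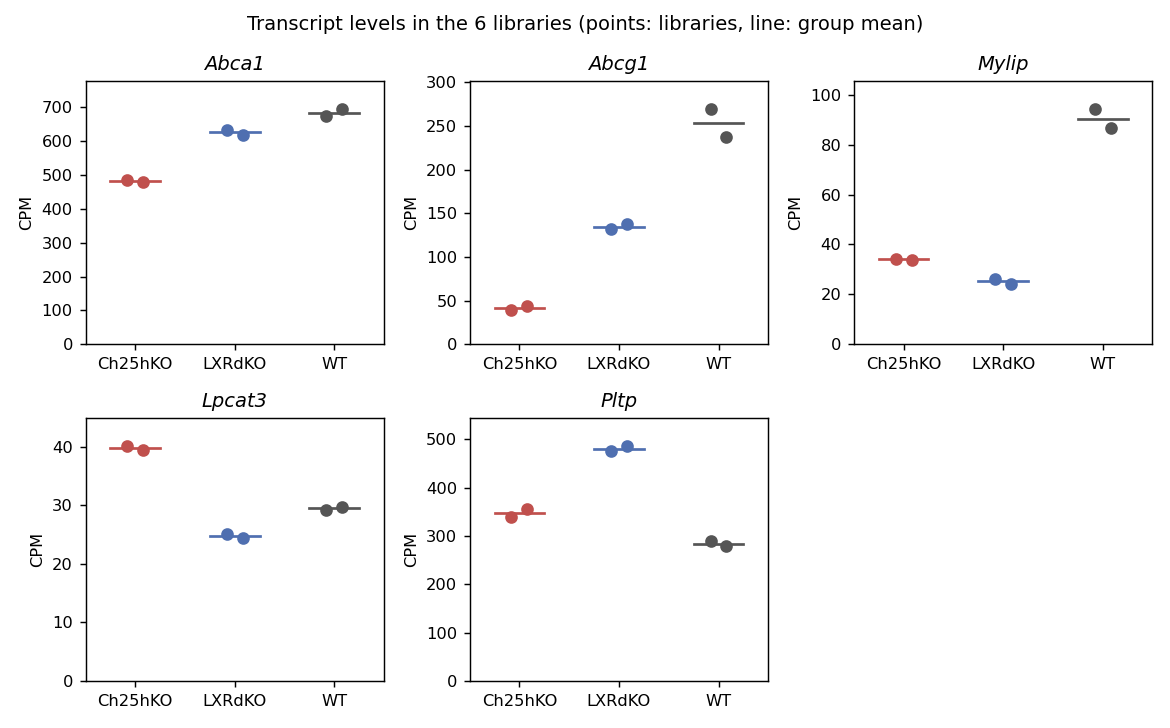
CPM (vertical axes, starting at 0) of the 5 genes in every library of Ch25hKO, LXRdKO and WT, with points for libraries and lines for group means. Abcg1 and Abca1 are lowest in Ch25hKO, Mylip is low in both knockouts, Lpcat3 is highest in Ch25hKO, and Pltp is highest in LXRdKO.

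Abca1 (ENSMUSG00000015243.4, chromosome 4, 53030787 to 53159895, GRCm38) had 485 and 478 CPM in Ch25hKO, 632 and 619 CPM in LXRdKO, and 674 and 694 CPM in WT. The Ch25hKO libraries were the lowest pair, and the LXRdKO pair lay just under the WT pair without overlap. Abca1 fell by 0.51 ± 0.05 in Ch25hKO (edgeR adjusted p = 6.16e-07), to 70.4% of the WT level. In LXRdKO it stood at -0.13 ± 0.05 (edgeR adjusted p = 0.0673) and did not pass. Without WT replicate 1 it passed, at -0.15 (edgeR adjusted p = 0.0334), as it did under 3 of the other planned settings. Between the knockouts it was 0.38 ± 0.05 higher in LXRdKO than in Ch25hKO (edgeR adjusted p = 1.47e-05).

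Abcg1 (ENSMUSG00000024030.7, chromosome 17, 31057675 to 31117988) changed most of the 5 in Ch25hKO. It had 39.6 and 43.6 CPM in Ch25hKO, 131 and 137 CPM in LXRdKO, and 269 and 237 CPM in WT. The 3 groups were ordered without overlap, with LXRdKO between Ch25hKO and WT. Abcg1 fell 6.08-fold in Ch25hKO (-2.60 ± 0.07, edgeR adjusted p = 2.34e-15), a size above that of 99.7% of tested genes. In LXRdKO it fell 1.88-fold (-0.91 ± 0.06, edgeR adjusted p = 5.26e-09), to 53.1% of the WT level. The level in LXRdKO was 3.23-fold that in Ch25hKO (1.69 ± 0.07, edgeR adjusted p = 1.36e-12).

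Per length, Abca1 lay above Abcg1 in all groups. Abca1 had 46.5 ± 0.421 CPM per kilobase of exon in Ch25hKO, 60.4 ± 0.926 in LXRdKO and 66.0 ± 1.36 in WT (SD, n = 2). For Abcg1 the same measure was 5.70 ± 0.381 in Ch25hKO, 18.4 ± 0.582 in LXRdKO and 34.7 ± 3.10 in WT. Among 11629 tested genes with an exon length, Abcg1 stood at percentile 64.0 in Ch25hKO, 83.9 in LXRdKO and 90.3 in WT, while Abca1 stayed between 92.9 and 94.8.

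Of 20 other transporters of the ABCA and ABCG families, 10 were abundant enough to be tested. In Ch25hKO, 2 rose and 2 fell, with a median change of -0.27, where 19.8% of all tested genes were higher and 19.5% lower. Abca8b fell by 1.86 ± 0.18, Abca9 by 0.35 ± 0.11, and Abca3, which loads surfactant lipid in lung, rose by 0.50 ± 0.06. In LXRdKO, 1 rose and 3 fell, with a median of -0.18, where 16.4% of all tested genes were higher and 15.5% lower. Abca8b fell by 0.91 ± 0.16, Abca9 by 0.44 ± 0.11 and Abca17 by 0.82 ± 0.26, a call lost with DESeq2, with limma-voom and without WT replicate 2 or either LXRdKO library. Abca8b stood at 1.13 CPM in Ch25hKO, 2.18 CPM in LXRdKO and 4.11 CPM in WT. Between the knockouts 2 were higher and 1 lower in LXRdKO (median 0.036), where 19.3% of all tested genes were higher and 18.6% lower. These calls were Abca8b (0.95 ± 0.20), Abcg3 (1.78 ± 0.59, at 0.284 CPM in LXRdKO and 0.0805 CPM in Ch25hKO) and Abca3 (-0.39 ± 0.06). The genes Abcg5 and Abcg8, known for sterol export in liver and gut, had 0 counts in every library. These small counts depended on single libraries: 1 fell in LXRdKO without LXRdKO replicate 2, and 1 fell in Ch25hKO without Ch25hKO replicate 2. In Ch25hKO, 1 rose without WT replicate 1, Ch25hKO replicate 1 or Ch25hKO replicate 2. In LXRdKO, 0 rose without WT replicate 1, Ch25hKO replicate 1 or LXRdKO replicate 2. Between the knockouts, 1 was higher without any 1 of the 4 knockout libraries, and 2 were lower without WT replicate 1 or WT replicate 2.

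Mylip (ENSMUSG00000038175.10, chromosome 13, 45389742 to 45412022) fell in both knockouts. It had 34.3 and 33.9 CPM in Ch25hKO, 26.3 and 24.1 CPM in LXRdKO, and 94.2 and 86.7 CPM in WT. Both knockouts lay far under WT, and the LXRdKO pair lay under the Ch25hKO pair. Mylip fell 2.66-fold in Ch25hKO (-1.41 ± 0.06, edgeR adjusted p = 6.95e-12) and 3.59-fold in LXRdKO (-1.85 ± 0.06, edgeR adjusted p = 4.71e-13). The LXRdKO level was 0.44 ± 0.07 lower than that of Ch25hKO (edgeR adjusted p = 3.25e-05). Among the 5 genes, Mylip had the largest fall in LXRdKO, larger than the change of 99.1% of tested genes.

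Genes of receptors that MYLIP is known to mark for degradation did not move as one. Lrp8, the gene of an apolipoprotein E receptor, rose by 0.61 ± 0.09 in Ch25hKO and fell by 0.76 ± 0.09 in LXRdKO. Vldlr, the gene of the VLDL receptor, at most 1.19 CPM on average in a group, rose by 1.57 ± 0.37 in Ch25hKO and by 1.84 ± 0.36 in LXRdKO, and the first of these calls was lost without Ch25hKO replicate 1 (edgeR adjusted p = 0.0765). Messenger RNA does not show how much receptor protein was present.

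With 3 ubiquitin-conjugating enzyme genes, Ube2d1, Ube2d2 and Ube2d3, the list described had 5 tested genes. Beside it, 19.8% of all tested genes rose and 19.5% fell in Ch25hKO, and 16.4% rose and 15.5% fell in LXRdKO. In Ch25hKO, 2 rose and 0 fell (median 0.095), and without Ch25hKO replicate 1 only 1 rose, while without WT replicate 2 there was 1 that fell. At an unadjusted p under 0.05, edgeR had 1 lower in Ch25hKO, and DESeq2 and limma-voom called 0 lower after adjustment. In LXRdKO, 2 rose and 1 fell (median 0.012), with Ube2d1 at 0.36 ± 0.07. Between the knockouts 1 was higher and 1 lower in LXRdKO (median 0.076), and without Ch25hKO replicate 1 none was higher.

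Lpcat3 (ENSMUSG00000004270.13, chromosome 6, 124663027 to 124704418) was the one gene of the 5 that moved in opposite directions in the knockouts. It had 40.1 and 39.4 CPM in Ch25hKO, 25.1 and 24.5 CPM in LXRdKO, and 29.2 and 29.7 CPM in WT. The Ch25hKO pair lay above WT and the LXRdKO pair below it. Lpcat3 rose 1.35-fold in Ch25hKO (0.43 ± 0.06, edgeR adjusted p = 1.18e-05) and fell 1.19-fold in LXRdKO (-0.25 ± 0.06, edgeR adjusted p = 0.00378). The fall did not pass without LXRdKO replicate 2 (-0.23, edgeR adjusted p = 0.0501). Between the knockouts it was 0.68 ± 0.06 lower in LXRdKO than in Ch25hKO (edgeR adjusted p = 4.50e-08). It shares 334 exon bases with the opposite-strand gene Emg1, and no source used here states whether the counting used strand. Emg1, with 250 to 403 counts per library, was at 0.55 ± 0.11 in Ch25hKO and 0.23 ± 0.12 in LXRdKO, and its part in the Lpcat3 counts was not tested.

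Of 10 other genes for lysophospholipid acyltransferases, 8 were tested, and 3 rose and 0 fell in each knockout. Over all tested genes, 19.8% rose and 19.5% fell in Ch25hKO, and 16.4% rose and 15.5% fell in LXRdKO. The medians of the 8 were 0.18 in Ch25hKO and 0.20 in LXRdKO. At an unadjusted p under 0.05, edgeR had 0 lower in either knockout, and DESeq2 and limma-voom called 0 lower after adjustment. Lpcat1 rose by 0.54 ± 0.09 in Ch25hKO and by 0.38 ± 0.09 in LXRdKO, and Lpcat2, which is known to make platelet-activating factor, by 0.24 ± 0.05 in Ch25hKO and by 0.44 ± 0.05 in LXRdKO. Mboat7, an enzyme of arachidonate-containing phosphatidylinositol, rose by 0.33 ± 0.06 in Ch25hKO and by 0.32 ± 0.06 in LXRdKO. Between the knockouts, Lpcat2 alone of the 8 passed (0.20 ± 0.05 higher in LXRdKO, median of the list -0.0044), and it did not without Ch25hKO replicate 1 (edgeR adjusted p = 0.0645).

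Pltp (ENSMUSG00000017754.13, chromosome 2, 164839518 to 164857711) rose in both knockouts. It had 340.2 and 356 CPM in Ch25hKO, 476 and 486 CPM in LXRdKO, and 289 and 279 CPM in WT. The 3 groups did not overlap, with LXRdKO highest and WT lowest. Pltp rose 1.22-fold in Ch25hKO (0.29 ± 0.05, edgeR adjusted p = 0.000259) and 1.69-fold in LXRdKO (0.76 ± 0.05, edgeR adjusted p = 6.32e-09). It was 0.47 ± 0.05 higher in LXRdKO than in Ch25hKO (edgeR adjusted p = 1.29e-06). Pltp lies 73.6 Mb from the deleted Nr1h3 on the same chromosome. It shares 495 exon bases with the opposite-strand gene Ctsa, which stood at 381 and 391 CPM in Ch25hKO, 410.2 and 420.3 CPM in LXRdKO, and 398 and 405 CPM in WT. Ctsa did not pass the test in any of the 3 comparisons, and its part in the Pltp counts was not tested.

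Among PLTP relatives and lipoprotein remodelling genes, 7 of 9 were tested. In Ch25hKO, 1 rose and 1 fell (median -0.17), and in LXRdKO 0 rose and 2 fell (median 0.028). Among all tested genes, 19.8% rose and 19.5% fell in Ch25hKO, and 16.4% rose and 15.5% fell in LXRdKO. For the 0 higher in LXRdKO, edgeR also had 0 at an unadjusted p under 0.05, as had DESeq2 and limma-voom after adjustment. Scarb1, which encodes the HDL receptor SR-BI, rose by 1.25 ± 0.08 in Ch25hKO. In LXRdKO Scarb1 fell by 0.26 ± 0.08, a call lost with DESeq2 and without either LXRdKO library (edgeR adjusted p = 0.113 and 0.0871). Lipg, the endothelial lipase gene, fell by 0.36 ± 0.09 in LXRdKO, a call lost with DESeq2 and without LXRdKO replicate 1. Apobr, a receptor gene for apolipoprotein B, fell by 0.22 ± 0.05 in Ch25hKO, a call lost without Ch25hKO replicate 1. Between the knockouts 1 was higher and 2 lower in LXRdKO (median 0.21), with Scarb1 at -1.51 ± 0.08. In the fits that left out 1 library, the number higher in this comparison was 3 without either WT library, 2 without Ch25hKO replicate 2 and 0 without LXRdKO replicate 2, and the number lower was 1 without Ch25hKO replicate 2 or LXRdKO replicate 1. In Ch25hKO, 2 fell without either WT library.

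**Figure D2:**
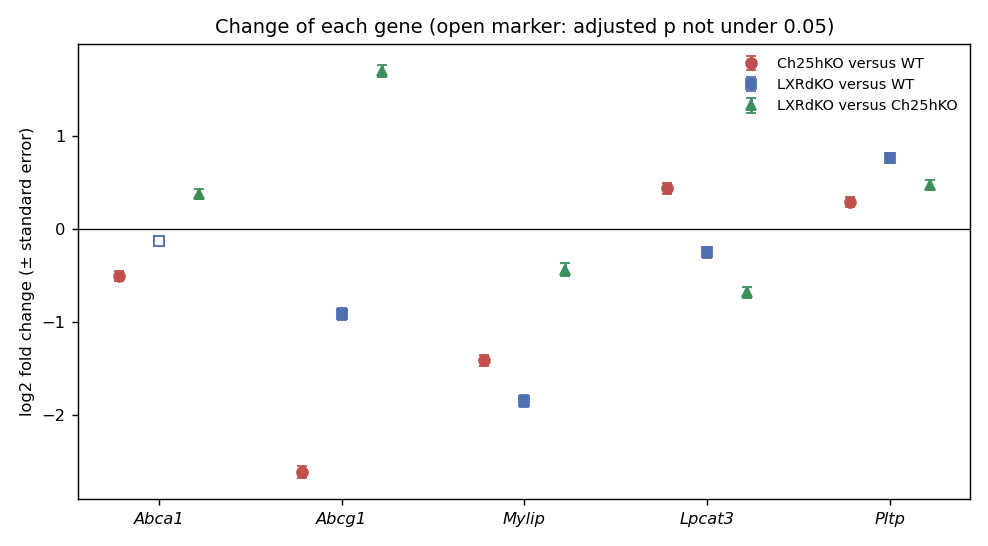
Log2 fold change (vertical axis) with its standard error for each of the 5 genes in 3 comparisons, with open markers where the adjusted p was not under 0.05. Lpcat3 lies above 0 in Ch25hKO and below it in LXRdKO, Pltp lies above 0 in both, and Abca1 in LXRdKO is the one open marker.

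The 5 genes were ranked per kilobase of merged exons, which need not be the length of the transcripts present. On this scale Pltp was the most abundant of the 5 in every group. It had 136 ± 4.36 CPM per kilobase in Ch25hKO, 188 ± 2.98 in LXRdKO and 111 ± 2.75 in WT (SD, n = 2). Abca1 followed in every group. The places after it differed by group. Next after Abca1 in Ch25hKO came Lpcat3, at 12.2 ± 0.153 CPM per kilobase, above Mylip (10.5 ± 0.0769) and Abcg1 (5.70 ± 0.381). In LXRdKO Abcg1 came next, and Mylip (7.79 ± 0.487) and Lpcat3 (7.58 ± 0.142) lay within the SD of Mylip of each other. In WT Abcg1 came next, followed by Mylip at 28.0 ± 1.64 and Lpcat3 at 9.01 ± 0.115 CPM per kilobase.

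**Figure D3:**
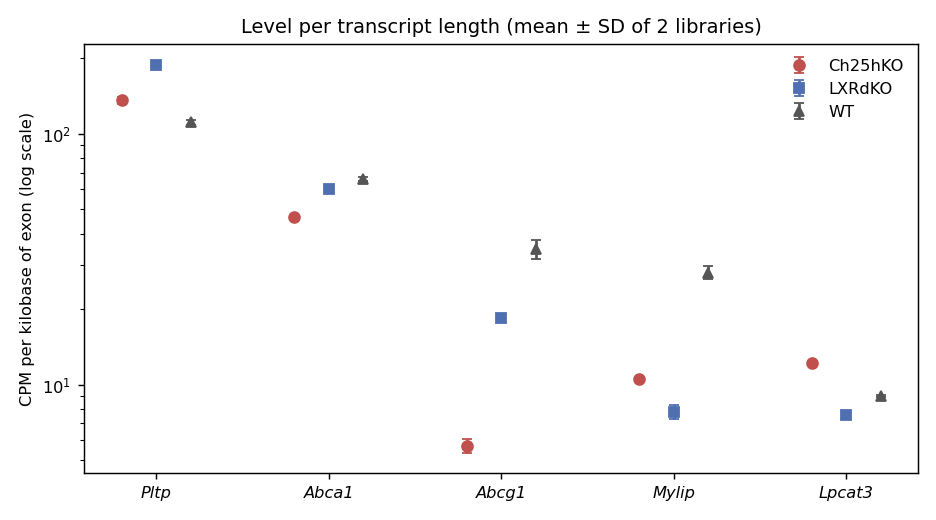
CPM per kilobase of exon (vertical axis, log scale) of the 5 genes as the mean and SD of 2 libraries in Ch25hKO, LXRdKO and WT. Pltp is highest and Abca1 next in every group, and Abcg1 lies at 5.70 in Ch25hKO, 18.4 in LXRdKO and 34.7 in WT.

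Other LXR targets moved both ways as well. Of 17 listed, 13 were tested, and 7 rose and 3 fell in Ch25hKO, with a median change of 0.49. There, 19.8% of all tested genes were higher and 19.5% lower. The largest rises of the 13 were in lipid synthesis: Fasn, the fatty acid synthase gene, by 3.12 ± 0.08, the acyl-CoA synthetase gene Acsl3 by 1.71 ± 0.10, and the desaturase gene Scd2 by 1.56 ± 0.07. In LXRdKO, 3 rose and 5 fell, with a median of -0.048, where 16.4% of all tested genes were higher and 15.5% lower. Scd2 fell by 2.19 ± 0.08, to 12.3 CPM in LXRdKO against 56.5 CPM in WT. Apoc2 and Apoe, neighbouring apolipoprotein genes, rose by 1.56 ± 0.07 and 1.15 ± 0.06 in LXRdKO, in the direction of Pltp. Between the knockouts 3 were higher and 6 lower in LXRdKO, with Scd2 at -3.75 ± 0.08, Fasn at -3.21 ± 0.08 and Acsl3 at -2.53 ± 0.11, and a median of -0.064. Leaving out any 1 library did not change these counts. Of the 12 listed genes with a promoter window, 1, Acsl3, held a DR4 match with 2 mismatches or fewer.

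**Figure D4:**
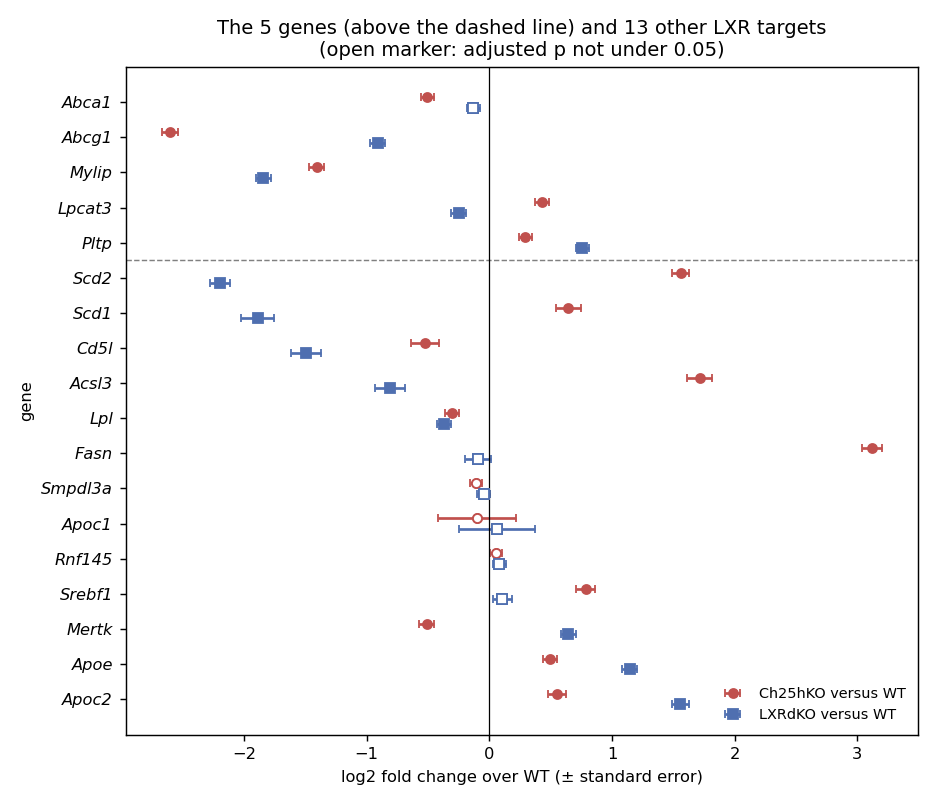
Log2 fold change over WT (horizontal axis) with its standard error for the 5 genes and 13 other LXR targets in Ch25hKO (circles) and LXRdKO (squares), open where the adjusted p was not under 0.05. Fasn lies at 3.12 in Ch25hKO, and Scd2 lies at 1.56 in Ch25hKO and -2.19 in LXRdKO.

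Of 16 genes of LXR partners and cofactors, 15 were tested. In Ch25hKO 2 rose and 2 fell (median 0.038), where 19.8% of all tested genes rose and 19.5% fell. In LXRdKO 6 rose and 0 fell (median 0.13), where 16.4% of all tested genes rose and 15.5% fell. For the 0 lower in LXRdKO, edgeR also had 0 at an unadjusted p under 0.05, as had DESeq2 and limma-voom after adjustment. The coactivator gene Ncoa1 was at -0.54 ± 0.05 in Ch25hKO and at 0.20 ± 0.05 in LXRdKO, and the corepressor subunit gene Tbl1xr1 was at 0.35 ± 0.05 in LXRdKO. Leaving out LXRdKO replicate 2 ended the Ncoa1 call in LXRdKO (edgeR adjusted p = 0.129). The rises in LXRdKO came to 3 without LXRdKO replicate 1 and to 2 without LXRdKO replicate 2. In Ch25hKO, 1 rose without WT replicate 1, Ch25hKO replicate 1 or Ch25hKO replicate 2, and 1 fell without Ch25hKO replicate 1. Between the knockouts 6 were higher and 0 lower in LXRdKO (median 0.064), again with 0 lower at an unadjusted p under 0.05 by edgeR and 0 by DESeq2 or limma-voom.

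Enzymes that make or clear LXR ligands gave 2 tested genes of the 6 described. Across all tested genes, 19.8% rose and 19.5% fell in Ch25hKO, and 16.4% rose and 15.5% fell in LXRdKO. Cyp27a1, which makes 27-hydroxycholesterol, rose by 0.83 ± 0.14 in LXRdKO and was 1.10 ± 0.14 higher in LXRdKO than in Ch25hKO. Hsd3b7, a bile acid enzyme, rose by 0.35 ± 0.08 in Ch25hKO, a call lost without Ch25hKO replicate 2. In all, 1 rose and 0 fell in Ch25hKO (median 0.041), and 1 rose and 0 fell in LXRdKO (median 0.49). Set against Ch25hKO, LXRdKO had 1 higher and 1 lower (median 0.45). The 1 lower was Hsd3b7, which did not pass with RLE scaling (edgeR adjusted p = 0.0578). At an unadjusted p under 0.05, edgeR had 0 lower in either knockout, and DESeq2 and limma-voom called 0 lower after adjustment. The number lower between the knockouts was 0 with DESeq2, with limma-voom, and without Ch25hKO replicate 2 or either LXRdKO library.

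The genes whose profile over the 6 libraries was closest to each of the 5 were found by the root mean square difference of mean-centred log2 CPM among 7696 candidates. For Abca1 they were Xrn1, Parp14 and Phip, at 0.031 to 0.032. For Lpcat3 they were Mtdh, Hdac9 and Smc6, at 0.021 to 0.039, and for Pltp they were Slc7a7, Pycard and Sepp1, at 0.037 to 0.046. The profile of Mylip was less closely matched, by Hspa1a, Ccnf and Plcxd2 at 0.13 to 0.21. Abcg1 had no close match by this distance, with Serpinb6b, Uaca and Cytip at 0.32 to 0.38. The distance is not scaled to the size of a change. By Pearson correlation, these genes stood at 0.95 to 0.97 with Abcg1, and those named for Mylip at 0.96 to 0.99 with Mylip. With 2 libraries in each of 3 groups, such a profile is close to 3 group means.

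The libraries were read for other cell types, since in bulk samples fewer cells of a type and less RNA per cell cannot be told apart. Over all tested genes, 19.8% rose and 19.5% fell in Ch25hKO, and 16.4% rose and 15.5% fell in LXRdKO. These shares stand beside the counts of every marker list below. Macrophage markers summed to 17208 to 17859 CPM in Ch25hKO, 20479 to 20661 CPM in LXRdKO and 17163 to 18630 CPM in WT. Of 10 tested, 3 rose and 2 fell in Ch25hKO (1 without Ch25hKO replicate 1), and 8 rose in LXRdKO (5 without either LXRdKO library). Dendritic cell markers summed to 20.2 to 21.3 CPM in Ch25hKO, 28.1 to 29.5 CPM in LXRdKO and 35.9 to 36.6 CPM in WT, and 4 and 2 of 9 fell in Ch25hKO and in LXRdKO. Stromal markers summed to 28.7 to 31.5 CPM in Ch25hKO, 14.7 to 17.0 CPM in LXRdKO and 12.4 to 13.1 CPM in WT. Of 7 tested, 6 rose in Ch25hKO and 2 in LXRdKO (1 without WT replicate 2 or LXRdKO replicate 1). The order of the dendritic sum rested on Xcr1, at 4.64 to 4.95 CPM in Ch25hKO, 13.1 to 14.6 CPM in LXRdKO and 12.8 to 14.5 CPM in WT. Without Xcr1, left out after the sums were seen, the others summed to 15.5 to 16.3 CPM in Ch25hKO, 14.91 to 14.99 CPM in LXRdKO and 22.1 to 23.2 CPM in WT. Leaving out Pdgfrb in the same way, the other stromal markers summed to 16.1 to 19.0 CPM in Ch25hKO. Their sums then overlapped between LXRdKO, at 7.26 to 8.80 CPM, and WT, at 7.07 to 8.33 CPM. The part of these dendritic and stromal markers in the changes of Abcg1 and Abca1 was not tested.

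Neutrophil markers summed to 69.2 to 72.1 CPM in Ch25hKO, 39.3 to 39.6 CPM in LXRdKO and 52.9 to 54.0 CPM in WT. This order rested on S100a8, at 48.1 to 50.4 CPM in Ch25hKO, 16.4 to 16.6 CPM in LXRdKO and 35.1 to 35.9 CPM in WT. Without S100a8, also left out after the sums were seen, the others summed to 21.1 to 21.7 CPM in Ch25hKO, 22.8 to 23.3 CPM in LXRdKO and 17.8 to 18.1 CPM in WT. The part of these markers in the change of Lpcat3 was not tested. Of 6 tested, 2 rose in Ch25hKO, and 1 rose and 4 fell in LXRdKO (2 fell without either LXRdKO library). Lymphoid markers stayed at or under 4.05 CPM in sum, with 1 of 3 lower in each knockout. That lymphoid count was 0 without WT replicate 1 in either knockout, 0 without Ch25hKO replicate 2 and 2 without Ch25hKO replicate 1 in Ch25hKO, and 0 without either LXRdKO library in LXRdKO. Mast cell, erythroid and megakaryocyte markers summed to 90.0 to 93.9 CPM in Ch25hKO, 80.8 to 87.3 CPM in LXRdKO and 87.7 to 93.0 CPM in WT. Hdc was highest in WT, at 62.4 to 68.4 CPM, against 48.6 to 51.5 CPM in Ch25hKO and 51.4 to 53.9 CPM in LXRdKO. With Hdc left out after the sums were seen, the others summed to 41.4 to 42.4 CPM in Ch25hKO. That sum was 29.5 to 33.3 CPM in LXRdKO and 24.6 to 25.3 CPM in WT. Of 5 tested, 1 rose and 3 fell in Ch25hKO (1 fell without Ch25hKO replicate 1), and 1 rose and 2 fell in LXRdKO. The globin genes Hbb-b1 and Hba-a1 were at 0 in every library, and Thy1, Cd3g and Elane had 2, 1 and 1 counts over all 6.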

How the data were processed

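RNA was measured in 6 libraries of LPS-treated mouse macrophages, 2 per genotype. Per the labels' protocols, total RNA was turned into amplified cDNA before library preparation. The deposited counts are whole reads per gene symbol, made with CASAVA, STAR 2.3.0 and HTSeq on mm10 per the submitters' processing notes. The sources used here do not give the annotation, the counting mode or whether strand was used. Amplified reads without molecular identifiers are not independent molecules.

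From the counts, edgeR 4.0.16 (R 4.3.3; TMM scaling, filterByExpr, robust quasi-likelihood fit) was run with 1 mean per genotype on all 6 libraries. It tested 12923 of 23337 genes, holding 99.98% of counts, with 3 residual degrees of freedom. The standard error is the log2 fold change divided by the square root of F. CPM used TMM-scaled library sizes, and CPM per kilobase used merged GENCODE vM21 exons. Replicates differed by more than counting noise in every group (chi-square per degree of freedom 5.08 in Ch25hKO, 4.22 in LXRdKO and 12.2 in WT), so each library counts as 1. The fit was also run on simulated data for Ch25hKO versus WT. It recovered 37 of 50 genes changed 1.5-fold, with 12 false calls among the unchanged of 12923 genes. Changes smaller than 1.5-fold were not simulated.

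The genes named are the 5, the targeted genes, the 3 closest profiles of each of the 5, and up to 3 genes per list and comparison with the lowest p. Values of these genes in the other comparisons are also given, and overlapping or unexpressed genes are named outside this rule. Results of some genes, 1 of the 6 that the rule gave among them, are not reported here. The members and lists were chosen with earlier results of these data known, and the limit of 3 DR4 mismatches was added after the promoters were read. DESeq2 1.42.0, limma-voom (limma 3.58.1), other scalings, other filters, other sample sets, a replicate block and leaving out each library were the alternatives. Motifs were read from RefSeq windows.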

Additional observations from a re-analysis of the deposited data

Results flagged for a closer look

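For 9 of the genes named by the rule, the change over WT passed the test in both knockouts with opposite sign, and the difference between LXRdKO and Ch25hKO itself passed edgeR's test. Lpcat3 is the one of the 5 sterol export genes among them, at 0.43 in Ch25hKO and -0.25 in LXRdKO, a difference of -0.68 (log2, LXRdKO minus Ch25hKO). The 3 genes with the profile closest to Lpcat3 are there by that choice, with differences of -0.67 for Mtdh, -0.66 for Hdac9 and -0.68 for Smc6. In lipid synthesis, Scd2 was at 1.56 in Ch25hKO and -2.19 in LXRdKO (difference -3.75), and Acsl3 at 1.71 in Ch25hKO and -0.81 in LXRdKO (difference -2.53). Among receptor genes, Scarb1 was at 1.25 in Ch25hKO and -0.26 in LXRdKO (difference -1.51), and Lrp8 at 0.61 in Ch25hKO and -0.76 in LXRdKO (difference -1.36). In the other direction, Ncoa1 was at -0.54 in Ch25hKO and 0.20 in LXRdKO (difference 0.73). The LXRdKO calls of Lpcat3, Scarb1 and Ncoa1 against WT did not hold in every alternative, as given above. These genes were named for a low p, a close profile or as members. The share of all tested genes with such a pattern was not counted. Both changes over WT use the same WT libraries. Groups of 2 libraries are too small to say that 1 library stands apart.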

How the results depend on the processing

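The 15 changes of the 5 genes were recomputed under 15 alternatives, 225 values in all: 219 kept direction and side of the threshold, 1 lost its call, 5 gained one and 0 reversed. Abca1 in LXRdKO against WT gained a call with upper-quartile scaling (-0.14, adjusted p = 0.0337), DESeq2 (-0.14, adjusted p = 0.0322), the 5 CPM filter (-0.16, adjusted p = 0.0151) and the crossed replicate block (-0.13, adjusted p = 0.0177). Leaving out 1 library gave -0.15 to -0.11, and over all 15 alternatives the adjusted p lay between 0.0151 and 0.297. Lpcat3 in LXRdKO against WT was at -0.27 to -0.23 with 1 library left out. For other named genes, 1636 of 1697 values were unchanged in call and direction, 42 lost a call, 18 gained one and 1 reversed. That was Uaca in LXRdKO against WT, at -0.25 to 0.067 with 1 library left out. With 1 library left out, the genes called numbered 1501 to 2478 higher in Ch25hKO against WT, 1292 to 2097 higher and 1198 to 2232 lower in LXRdKO against WT, and 1504 to 2828 lower in LXRdKO against Ch25hKO. The genes called lower in Ch25hKO against WT and higher in LXRdKO against Ch25hKO also varied in number. The lowest of the counts printed came without an LXRdKO library or Ch25hKO replicate 1, and the cause was not tested. The lone library of such a group is assumed to vary like the others. Replicate numbers did not pair the libraries: deviations of same-numbered libraries correlated at -0.31 (Ch25hKO with WT), -0.059 (LXRdKO with WT) and 0.11 (LXRdKO with Ch25hKO). The replicate block called 2372 genes higher and 2393 lower in Ch25hKO against WT, 1913 and 1843 in LXRdKO against WT, and 2365 and 2256 in LXRdKO against Ch25hKO. Crossing the WT numbers, chosen after seeing the data, gave 2730 and 2675, 2335 and 2193, and 2651 and 2557 in the same order. Mylip and Lpcat3 rest on the fewest reads of the 5, from 1064 counts in a library.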
